A study of Homo sapiens with 12 samples.

Results

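AQP3 encodes aquaporin 3, a channel protein of the plasma membrane, and it is 1 of 33514 gene symbols measured here by single-cell RNA sequencing (scRNA-seq) in 3 lines of head and neck squamous cell carcinoma (HNSCC). It was chosen because its level had been seen to fall in SCC6 cells given cetuximab, so the values of that comparison are a description and carry no test. In the GRCh38.p14 assembly of RefSeq the gene lies on chromosome 9 from 33441160 to 33447593 and overlaps no other annotated gene.

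Aquaporins let water cross membranes. AQP3 belongs to the aquaglyceroporins, the members that also pass glycerol and other small solutes, and it passes hydrogen peroxide as well. In skin and oral epithelium it is known from the basal and lower suprabasal keratinocytes, where glycerol uptake is tied to hydration of the tissue.

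The lines SCC1, SCC6 and SCC25 are established human HNSCC lines that respond to cetuximab, an antibody which blocks the epidermal growth factor receptor (EGFR). Each line was given 100 nM cetuximab every day for 5 days or, as the untreated control, PBS (phosphate-buffered saline). The 6 groups had 2 replicates each, 12 samples in all. No engineered allele or second agent is named for any group, and whether the replicates were separate cultures is not given, so SDs, standard errors (SEs) and p-values cover the spread between libraries, which may be technical.

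The libraries held 961 to 2854 cells each, and their unique molecular identifiers (UMIs, 1 per captured transcript) ranged from 57057402 to 112170073 in total. Between 1 and 13 cell barcodes were common to any pair of libraries, and 3 to 10 to replicates of the same group. The squamous label was checked against 8 markers. SCC1 and SCC25 expressed keratins KRT5 and KRT14 at 324 CPM (counts scaled per library) or more in every sample. In SCC6, KRT5 was at most 4.47 CPM and KRT14 at most 2.52 CPM, while KRT17 (492 CPM or more), the stratifin gene SFN and the adhesion gene EPCAM were present. KRT6A in SCC6 was at 23.9 and 17.6 CPM untreated and at 2.86 and 3.99 CPM with cetuximab. There TP63 ranged from 6.81 to 21.5 CPM and CDH1 from 26.2 to 43.6 CPM. The leukocyte, endothelial, liver and erythroid markers PTPRC, CD3E, LYZ, PECAM1, VWF, ALB and HBB reached at most 0.299 CPM in any sample. The other markers on the list of other cell types were not all low, since CD68, a lysosomal gene used as a macrophage marker, stood at 119 to 205 CPM in SCC25 and LUM, a fibroblast matrix gene, reached 58.0 CPM there. Summed over that list of 13 genes the level was 183 to 245 CPM in SCC25 and 16.3 to 32.4 CPM in the other lines. Its part in the AQP3 values was not tested.

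AQP3 was expressed in all 12 samples and was lower with cetuximab in every line. Levels are CPM of UMIs summed over the cells of a sample and scaled with TMM factors. In untreated SCC1 it stood at 38.3 CPM in replicate 1 and 84.6 CPM in replicate 2, against 18.5 and 28.2 CPM with cetuximab. In untreated SCC6 it stood at 172.7 and 103.4 CPM, against 11.7 and 10.4 CPM with cetuximab. In untreated SCC25 it stood at 106 and 338 CPM, against 32.9 and 117 CPM. The treated and untreated samples did not overlap in SCC1 or SCC6, whereas in SCC25 the higher treated replicate lay above the lower untreated one. Because the libraries are sums over cells, fewer AQP3-expressing cells and less AQP3 RNA per cell cannot be told apart at this level.

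**Figure D1:**
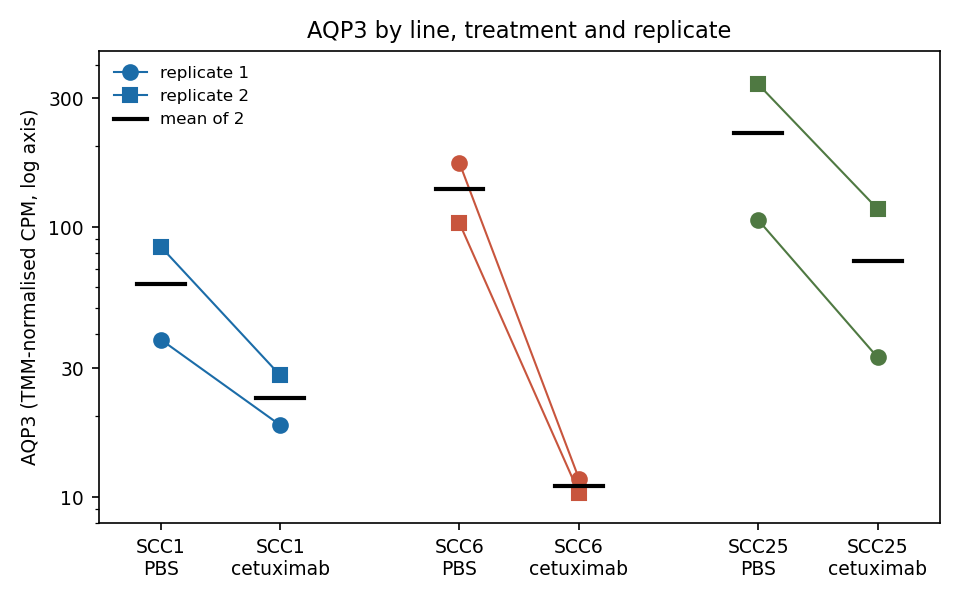
AQP3 in each of the 12 samples as TMM-normalised CPM on a log axis, with a line joining the PBS and cetuximab samples of the same replicate number and a black bar at the mean of 2 replicates. Every joined pair slopes down, and the SCC6 pairs end at 11.7 and 10.4 CPM, the lowest levels plotted.

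Ordered by group mean, AQP3 was highest in untreated SCC25 (222 ± 164 CPM, SD, n = 2). Untreated SCC6 followed at 138 ± 49.0 CPM, SCC25 with cetuximab at 74.8 ± 59.3 CPM and untreated SCC1 at 61.4 ± 32.7 CPM. Each of these 4 groups overlapped its neighbour in the order. SCC1 with cetuximab (23.3 ± 6.90 CPM) and SCC6 with cetuximab (11.0 ± 0.940 CPM) were the lowest, and their samples did not overlap each other or untreated SCC1. The replicates of SCC25 differed 3.18-fold without and 3.55-fold with cetuximab, replicate 2 being the higher in both. KRT13 and LY6D, genes that go with AQP3 over single cells as described below, were also higher in replicate 2 of both SCC25 arms. Their part in that replicate difference was not tested.

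Same-numbered samples of a line deviated together over all genes, so AQP3 was also compared within pairs. In SCC1 the PBS level was 2.08 and 3.00 times the cetuximab level in pairs 1 and 2. In SCC25 it was 3.23 and 2.90 times, and in SCC6 14.8 and 9.97 times. The level with cetuximab was thus lower in all 4 pairs of SCC1 and SCC25. It was also lower in both SCC6 pairs, with larger ratios. As AQP3 was chosen for its fall in SCC6, the direction and size there are a description only.

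In the fit of 6 group means, the log2 fold change of AQP3 in SCC1 was -1.40 ± 0.66 (SE) and did not pass the test (edgeR quasi-likelihood, Benjamini-Hochberg adjusted p, FDR = 0.602). In that comparison 3 of 17897 genes tested, or 0.0168%, passed an FDR of 0.05. With the replicate number as a block, the change was -1.32 ± 0.18 and passed (edgeR FDR = 0.0121), beside 4.45% of all genes. The edgeR and DESeq2 FDRs ranged from 0.0121 to 1 over 19 alternative settings, and the blocked fit was the one below 0.05. Without untreated replicate 2, the higher of the pair, the change was -0.72.

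In SCC25 the log2 fold change was -1.57 ± 0.66 and did not pass either (edgeR FDR = 0.808). None of the genes tested passed there (0%), although 1041 had an unadjusted p under 0.05 and DESeq2 called 101. With the replicate block the change was -1.61 ± 0.18 and passed (edgeR FDR = 0.0125), beside 0.978% of all genes. The FDRs again ranged from 0.0125 to 1 over 19 alternatives, with the blocked fit alone below 0.05. The change was -0.50 without untreated replicate 2, -0.91 without treated replicate 1 and -2.76 without treated replicate 2, so that single libraries moved it by more than 1.5 times.

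In SCC6, the comparison AQP3 was chosen from, the log2 fold change was -3.65 ± 0.72, and -3.60 ± 0.20 with the block. The FDR threshold was passed by 3.81% of all genes in this comparison, and by 20.1% with the block.

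The changes in SCC1 and SCC25 were set against each other directly. The SCC25 change minus the SCC1 change was -0.17 ± 0.91 (edgeR FDR = 1), with 0% of genes called by edgeR, 462 genes at an unadjusted p under 0.05 and 6 called by DESeq2. With the block it was -0.29 ± 0.25 (edgeR FDR = 0.883). A difference of 1.5 in either direction is within 2 SEs in the fit of group means.

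Untreated SCC25 held more AQP3 than untreated SCC1, by 1.86 ± 0.66 on the log2 scale (edgeR FDR = 0.0465, higher in 2 of 2 SCC25 samples). The lines differed widely, with 40.8% of genes called in this comparison. The call was close to the threshold and was lost in 9 of 12 fits that left out 1 library, among them those without SCC25 PBS replicate 2 (0.79, edgeR FDR = 0.395) and without SCC1 PBS replicate 1 (1.39, edgeR FDR = 0.236). The edgeR FDR was 0.0572 to 0.0614 without SCC1 PBS replicate 2, either treated SCC1 library or any of the 4 SCC6 libraries.

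To ask how AQP3 was spread over the cells, each cell was thinned at random to 15000 UMIs, which left out 0.847 to 9.18% of the cells of a sample, and a cell with 1 or more AQP3 UMIs was counted as positive. In SCC1, 27.5% (95% exact binomial interval 25 to 30.1%) and 44.5% (42.0 to 46.9%) of untreated cells were positive, against 16.2% (13.9 to 18.7%) and 23.8% (21.6 to 26.2%) with cetuximab. In SCC6 the untreated shares of 72.7% (71.0 to 74.4%) and 59.6% (57.6 to 61.6%) stood against 14.6% (13.2 to 16.0%) and 12.3% (10.7 to 14%). In SCC25 they were 52.8% (50.7 to 54.9%) and 82.5% (80.9 to 83.9%) against 24.9% (23.0 to 26.9%) and 52.3% (50.1 to 54.5%). At this setting both treated shares lay below both untreated ones in each line. In SCC25 that order was not kept at other settings. Treated replicate 2 lay above untreated replicate 1 with thinning to 10000 UMIs (45.1 and 44.6%) and without thinning (75.2 and 70.1%). The same held with 2 or more of 15000 UMIs as positive (32.7 and 30.8%). With 1 or more of 15000 UMIs, the counting intervals of the nearest treated and untreated samples overlapped in SCC1 and in SCC25 and not in SCC6. The intervals cover counting error only, and 2 samples against 2 allow no exact p-value under 0.05, so none is given.

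Free RNA in the droplets can give a UMI to a cell that does not express a gene. The samples held no cell type known to lack AQP3, so how many positive cells arise in this way was not measured, and the shares are of cells with a UMI and not of cells shown to express the gene. Without thinning the AQP3 shares were 32.5 to 67.4% in SCC1, 21.6 to 87.9% in SCC6 and 40.4 to 95.2% in SCC25.

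**Figure D2:**
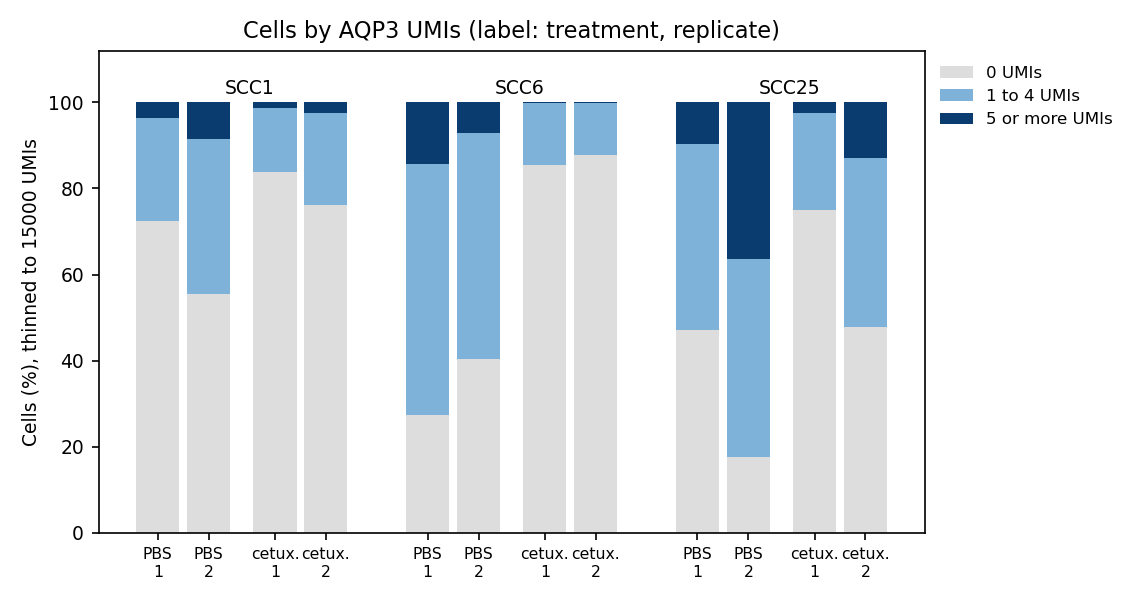
Share of cells with 0, 1 to 4 and 5 or more AQP3 UMIs in each sample, in percent of the cells thinned to 15000 UMIs. The dark class of 5 or more UMIs holds 36.5% of the cells of untreated SCC25 replicate 2 and at most 0.154% of the cells of cetuximab-treated SCC6.

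Both the share of positive cells and the AQP3 UMIs per positive cell were lower with cetuximab in both pairs of SCC1 and of SCC25. Both were also lower in the SCC6 pairs, the line where AQP3 was chosen for its fall. At these counts a lower level in all cells would lower both measures. They therefore do not separate fewer expressing cells from less AQP3 RNA per cell. In SCC6 the share was 4.99 and 4.86 times higher without cetuximab, and the UMIs per positive cell 2.38 and 1.84 times higher. In SCC1 the corresponding values were 1.70 and 1.87 times for the share and 1.08 and 1.47 times for the UMIs. In SCC25 they were 2.12 and 1.58 times for the share and 1.42 and 1.66 times for the UMIs. Cells with 5 or more AQP3 UMIs, the high expressors, made up 14.3 and 7.06% of untreated SCC6 cells and 0.154 and 0.122% of the treated ones. In SCC25 such cells persisted, at 2.5 and 12.9% with cetuximab against 9.64 and 36.5% without.

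AQP3 was unevenly distributed among cells of the same sample. The Fano factor (variance over mean, 1 for counts that vary by sampling alone) was 4.01 to 7.23 in SCC1, 1.49 to 3.16 in SCC6 and 5.10 to 9.70 in SCC25. Genes with a mean within 1.5 times that of AQP3 had median Fano factors of 1.04 to 1.52 in the same samples, and between 0.202 and 3.52% of them exceeded AQP3. The tenth of cells with most AQP3 held 36.8% of its UMIs in untreated SCC6 replicate 1, the lowest value, and 86.0% in treated SCC6 replicate 2, the highest. Single cells reached 75 AQP3 UMIs in untreated SCC25 replicate 2, where the median cell had 3.

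Genes that go with AQP3 across the cells of a sample were ranked by the mean Pearson r of log2(UMIs + 1) within samples. These correlations are descriptions over 938 to 2652 cells that share a library, and in sparse counts their size is limited by the depth. In SCC25 the leading gene was LY6D, a small surface protein of squamous epithelium, with r of 0.53 and 0.60 in the untreated and 0.48 and 0.60 in the treated samples (mean 0.55). It was followed by S100A6 (mean 0.35), a calcium-binding protein, LCN2 (0.35), which codes for the siderophore-binding lipocalin 2, FAM213A (0.32), a redox protein, and FXYD3 (0.31), a regulator of the sodium pump. PFN1 (-0.36), an actin-binding protein, C12orf75 (-0.32) and CAV1 (-0.31), the coat protein of caveolae, ran the other way. The keratin gene KRT13 missed the detection floor in SCC25 and was not ranked there. Its r was 0.43 and 0.48 in the untreated and 0.24 and 0.37 in the treated SCC25 samples.

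In SCC1 the leading genes were CRABP2 (mean 0.33), which binds retinoic acid, KRT13 (0.32), a keratin of suprabasal oral epithelium, KRT6A (0.31), CYP1B1 (0.31), a cytochrome P450, and TNNT3 (0.31), a troponin. CAV1 (-0.31), the secreted IGFBP7 (-0.31) and DRAM1 (-0.28), linked to autophagy, were the most negative. CAV1 was thus among the 3 lowest genes in both SCC1 and SCC25, whereas its r in SCC6 lay between -0.06 and -0.01. LY6D, first in SCC25, had r of 0.27 to 0.31 in the SCC1 samples and 0.02 to 0.04 in the SCC6 samples.

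In SCC6 the correlations were weaker, and 3 genes were at or above 0.1 in every sample. KRT19, a simple-type keratin, had r of 0.34 and 0.27 in the untreated and 0.15 and 0.14 in the treated samples. SLPI, a secreted protease inhibitor (mean 0.14), and CTSC, cathepsin C (mean 0.11), followed, and PMEPA1, a target of TGF-beta signalling, was the only gene below -0.1 throughout (mean -0.13). The few positive cells of treated SCC6 limit what its r values can show. Over all 12 samples, SLPI (mean r 0.22) and KRT19 (0.19) were the only genes above 0.1 in each sample, out of 6073 detected in at least 10% of the cells of every sample, and no gene was below -0.1 in each.

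**Figure D3:**
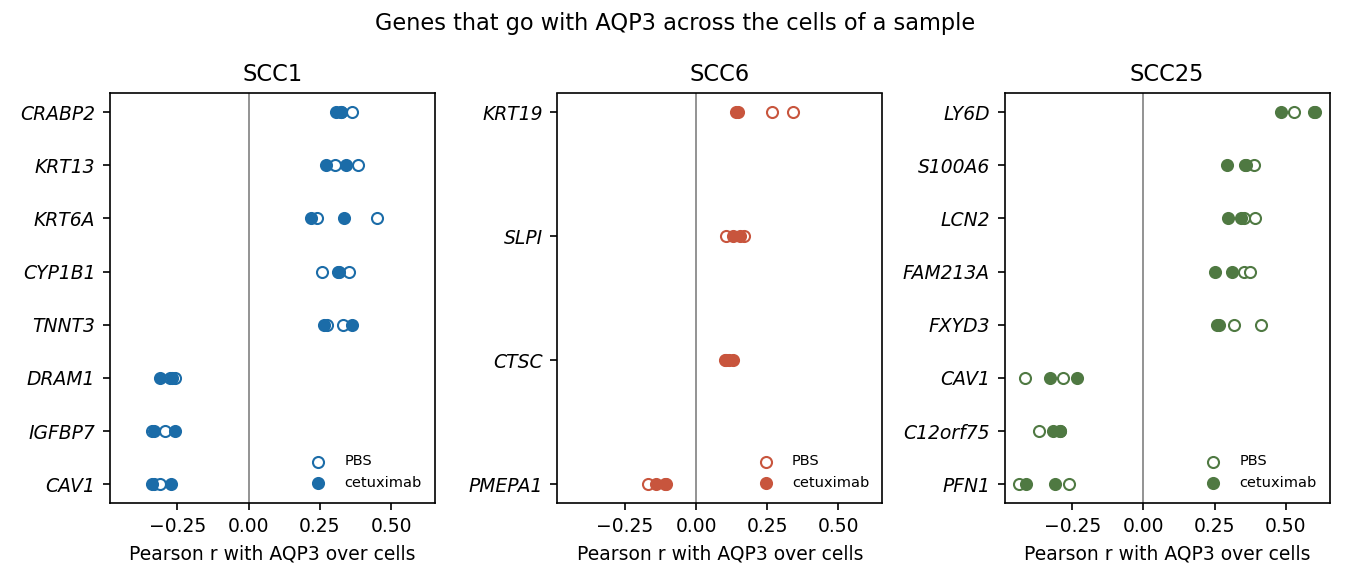
Pearson r with AQP3 over the cells of each sample for the named genes of each line, 1 point per sample, open for PBS and filled for cetuximab. LY6D in SCC25 reaches 0.60, and the SCC6 points lie closer to 0 than most of those in the other lines.

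For EGFR, the target of cetuximab, r with AQP3 ranged from -0.06 to 0.17 over the 12 samples, and for the transcription factor gene TFAP2A from -0.04 to 0.04. Mesenchymal genes leaned negative, with a median r of -0.23 over 4 detected members in SCC1, -0.08 over 5 in SCC6 and -0.18 over 5 in SCC25, against medians of -0.01, 0.00 and -0.01 for all genes compared in those lines.

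The leading genes were then followed under cetuximab in the summed counts. LY6D stood at 802 and 1920 CPM in untreated SCC25 and at 186 and 537 CPM with cetuximab. Its change of -1.91 ± 0.57 missed the threshold in the group-mean fit (edgeR FDR = 0.599) and passed with the replicate block (-1.97 ± 0.16, edgeR FDR = 0.00579). LY6D was also lower with cetuximab in both pairs of SCC1, from 19.5 and 24.2 CPM to 7.98 and 14.7 CPM, and of SCC6, from 9.62 and 5.64 CPM to 3.49 and 2.02 CPM. Those changes of -0.94 ± 0.56 and -1.47 ± 0.57 passed with the block only (edgeR FDR = 0.0161 and 0.00152). FAM213A also fell in SCC25 with the block (-1.23 ± 0.15). KRT13 had changes of opposite sign, 0.91 ± 1.04 in SCC1 and -1.59 ± 1.05 in SCC25, neither of which passed, although the SCC25 fall did with the block (-2.24 ± 0.32, edgeR FDR = 0.0261). Of the other positive correlates of SCC1, KRT6A, CYP1B1 and TNNT3 had changes in that line of 0.28 to 0.38 that passed in neither edgeR fit. CRABP2, like AQP3, did not pass in the group-mean fit and passed with the block, with -0.84 ± 0.36 and -0.80 ± 0.13 (edgeR FDR = 0.0167 with the block). In SCC6, SLPI was at 601 and 445 CPM without and 76.2 and 81.0 CPM with cetuximab and fell with the threshold passed (-2.73 ± 0.48), while KRT19 changed by -0.85 ± 0.56 and passed with the block alone. Of the other SCC25 correlates, S100A6 (-0.21 ± 0.24), FXYD3 (-0.21 ± 0.30) and LCN2 (0.81 ± 0.94) passed in neither edgeR fit in SCC25. S100A6 fell in SCC6 (-1.41 ± 0.24) and was at 0.49 ± 0.24 in SCC1, where it did not pass. FXYD3 passed edgeR with the block only in these lines. It rose in SCC1 (0.68 ± 0.12, edgeR FDR = 0.021), against the direction of AQP3, and fell in SCC6 (-1.27 ± 0.12). CTSC, a correlate of SCC6, passed there in neither edgeR fit (-0.45 ± 0.30).

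Among the genes that ran against AQP3 over cells, IGFBP7 rose in SCC6 (2.06 ± 0.41), and with the block in SCC25 (1.29 ± 0.15). PMEPA1 had changes of 1.79 ± 0.47 in SCC1, 1.40 ± 0.46 in SCC6 and 1.13 ± 0.46 in SCC25, all of which passed edgeR with the block and none edgeR without it, while DESeq2 without the block called those in SCC1 and SCC6 (FDR = 0.0177 and 0.0409). CAV1 changed by 0.15 to 0.45, past the threshold in SCC6 with the block, and C12orf75 fell in SCC1 with the block (-0.74 ± 0.16). PFN1 and DRAM1 passed in no line in either edgeR fit, and DESeq2 called DRAM1 higher in SCC25 (FDR = 0.0403).

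Cells were also split by whether they held a UMI of a marker gene, and mean AQP3 UMIs per thinned cell were compared within each sample. AQP3 was higher in cells with KRT15, a keratin of basal cells, in 12 of 12 samples, by 1.35 to 2.98 times. Basal layer genes did not all go this way. Their median r with AQP3 was -0.12 over 8 detected genes in SCC1, -0.01 over 4 in SCC6 and 0.07 over 8 in SCC25. In SCC1 the mean r ran from -0.18 for ITGB4 to 0.21 for KRT5. AQP3 was lower in cells with MKI67, a marker of cycling cells, in 12 of 12, at 0.447 to 0.843 times the level of the other cells. It was lower in cells with VIM, the mesenchymal intermediate filament vimentin, in the 10 samples with at least 20 cells on each side, at 0.296 to 0.957 times. Cells with AREG, an EGFR ligand, had less AQP3 in 11 of 12 samples, with a smaller gap (0.711 to 1.04 times). IVL, involucrin of differentiating cells, split 6 samples, with 1.79 and 1.95 times more AQP3 in the IVL-positive cells of 2 SCC25 samples and 0.721 to 1.15 times in the 4 SCC6 samples.

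**Figure D4:**
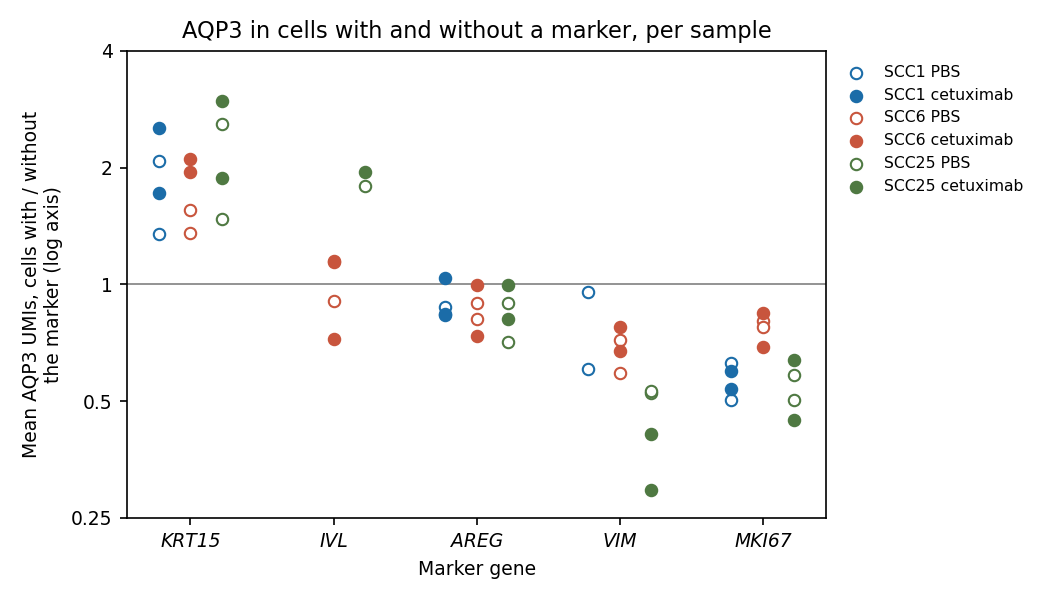
Mean AQP3 UMIs in cells with a marker UMI divided by that in cells without, 1 point per sample on a log axis, open for PBS and filled for cetuximab. The KRT15 points all lie above 1, the MKI67 and VIM points all below it, and the IVL points on both sides.

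The lower level with cetuximab was seen on both sides of the MKI67, KRT15 and VIM splits, wherever both arms of a line could be split. In cells without MKI67, untreated SCC6 held 12.4 and 8.84 times the AQP3 of treated SCC6 in pairs 1 and 2, and in cells with MKI67 11.8 and 9.98 times. In SCC1 the ratios were 2.43 to 2.89 without and 2.05 to 3.39 with MKI67. Vimentin-positive cells made up most of treated SCC6 (2391 of 2592 and 1522 of 1639 cells) but a minority of untreated SCC6 (467 of 2652 and 824 of 2436). Among SCC6 cells with no VIM UMI, AQP3 went from 2.31 and 1.67 UMIs per cell without to 0.234 and 0.231 with cetuximab, 9.90 and 7.23 times. In the KRT15-positive cells of SCC25 the untreated level was 1.97 and 2.06 times the treated one, against 2.25 to 2.61 times in the other cells.

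Likeness over samples was measured as the root mean square difference of log2(CPM + 1), each gene centred on its mean of the 12 samples, over 7557 genes with a mean of at least 10 CPM. The closest gene was ADORA2B, an adenosine receptor, at 0.849, against a median of 1.53 over all genes compared. ALDH3A1 (0.868), an aldehyde dehydrogenase, RIN1 (0.971), which acts in RAS signalling, CTSD (0.980), cathepsin D, and IMPA2 (0.993), an inositol monophosphatase, followed. As these genes were picked for likeness to AQP3 over the same 12 samples, changes like those of AQP3 follow from the choice. Their changes are given as descriptions only. ADORA2B and IMPA2 fell in SCC6, by 2.18 ± 0.37 and 1.11 ± 0.20 in log2 units. With the block ADORA2B also fell in SCC1 (-1.09 ± 0.21), ALDH3A1 in SCC25 (-2.01 ± 0.20), and ALDH3A1, RIN1 and CTSD in SCC6. ALDH3A1 and CTSD were higher in replicate 2 of both SCC25 arms, as AQP3 was, ALDH3A1 at 18.8 and 143 CPM without and 3.50 and 45.8 CPM with cetuximab, and CTSD at 331 and 1056 CPM without and 358 and 848 CPM with it.

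No other aquaporin passed the test in the direction of AQP3 in any line. Of 13 further family members in the tables, AQP2, AQP9, AQP12A and AQP12B had 0 UMIs in all samples (a count of 0 allows up to 3 counts in a library), and 5 passed the filter on low counts. AQP3 held 73.9 to 98.8% of the UMIs of the 14 genes, a share of 3′ tags that needs no scaling to transcript length. AQP11, an intracellular member, was the next in SCC1 and SCC6, at 5.73 to 7.93 CPM in SCC1 and 1.73 to 2.63 CPM in SCC6, and its log2 changes of -0.09 ± 0.27, 0.16 ± 0.27 and 0.21 ± 0.28 in SCC1, SCC6 and SCC25 did not pass. AQP4, the main water channel of brain astrocytes, was found almost entirely in replicate 2 of SCC25, with 78 UMIs without and 64 UMIs with cetuximab, against 5 and 3 UMIs in replicate 1 and none in the other lines.

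AQP10, another aquaglyceroporin, was higher with cetuximab where AQP3 was lower. Its UMIs numbered 1 and 3 in untreated SCC1 and 15 and 22 with cetuximab, 3 and 2 in untreated SCC6 and 49 and 34 with cetuximab, and 88 and 182 in untreated SCC25 and 176 and 429 with cetuximab. All 6 pairs were higher with cetuximab. Per library size the summed UMIs were 10.1 times higher in SCC1 (95% exact interval 3.63 to 39.0, counting error only), 17.3 times in SCC6 (7.15 to 54.9) and 2.19 times in SCC25 (1.89 to 2.54). AQP10 rose in SCC6 by 4.07 ± 0.63 on the log2 scale (edgeR FDR = 0.0104). In SCC1 the change of 3.27 ± 0.69 did not pass in the group-mean fit (edgeR FDR = 0.189) and passed with the block (3.28 ± 0.50, edgeR FDR = 0.0154) and with DESeq2 (FDR = 0.0208). In SCC25 the change of 1.13 ± 0.43 passed in neither edgeR fit (edgeR FDR = 0.765 and 0.0973). Its level stayed at or below 4.24 CPM in every sample.

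**Figure D5:**
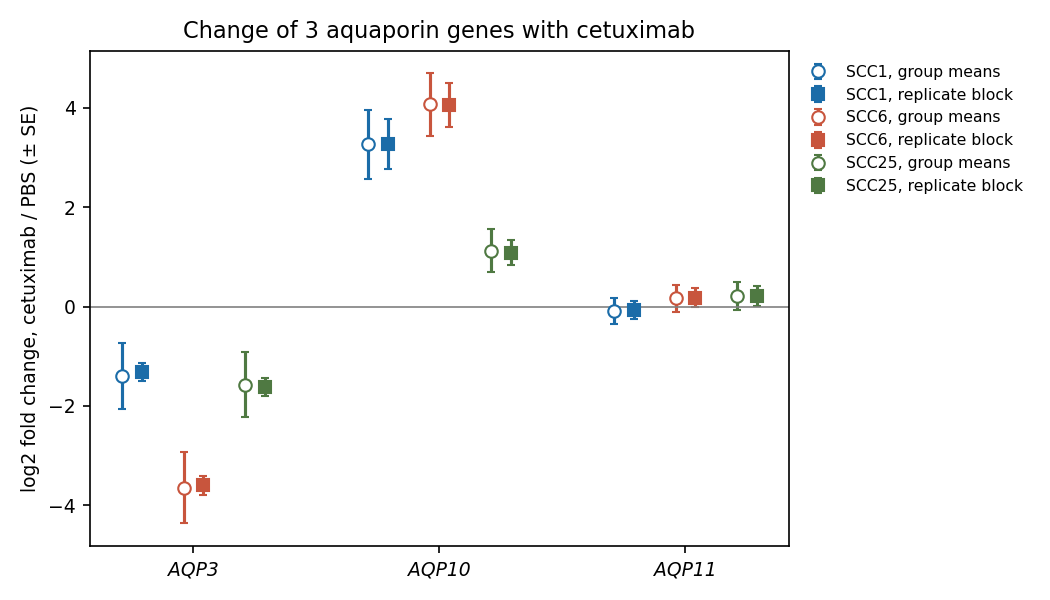
Log2 fold change with cetuximab (± SE) of AQP3, AQP10 and AQP11 in each line, as open circles from the fit of group means and filled squares from the fit with the replicate block. AQP3 lies below 0 and AQP10 above 0 in all 3 lines, and AQP11 stays between -0.09 and 0.21.

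Genes that handle what AQP3 transports were counted from lists chosen with earlier results of these data known. Calls in the lists are those of edgeR in the group-mean fit unless the block is named, beside 0.0168% of all genes in SCC1, 3.81% in SCC6 and 0% in SCC25, or 4.45%, 20.1% and 0.978% with the block. DESeq2, fitted without the block, called 9 members of all the lists in SCC1 and 1, TAGLN, in SCC25. Of 11 tested genes of glycerol handling, none passed in SCC1 or SCC25, and in SCC6 LIPE, the hormone-sensitive lipase that frees glycerol, was lower (-1.18 ± 0.28, from 8.64 and 7.6 to 2.96 and 4.18 CPM). The block added GK, glycerol kinase (-1.20 ± 0.33), and GPD2, which oxidises glycerol 3-phosphate in mitochondria (-0.75 ± 0.19), both lower in SCC6. With 3 of 11 called against 20.1% of all genes, and 1 of 11 against 3.81% without the block, the share was near that of all genes. Median changes of this list were -0.05, -0.15 and -0.08 in SCC1, SCC6 and SCC25, beside 0.00, 0.00 and -0.01 over all genes.

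Of 17 tested genes that make or remove peroxide, again none passed in SCC1 or SCC25. In SCC6, GPX2, a glutathione peroxidase, fell from 79.0 and 91.6 CPM to 28.3 and 22.9 CPM (-1.74 ± 0.25), and NOX4, a peroxide-producing oxidase, rose from 0 and 0.0218 CPM to 0.206 and 0.188 CPM. GPX2 was also the member with the highest r with AQP3 over cells in both SCC6 (mean 0.12) and SCC25 (0.24). Of 8 tested genes of volume regulation and urea transport none passed edgeR's group-mean fit in any line, although DESeq2 called LRRC8C lower in SCC6 (FDR = 0.0262), and the abundant LRRC8A, LRRC8D and SLC12A2 had changes of -0.43 to 0.26. With the block the volume channel subunits LRRC8B (-0.70) and LRRC8C (-1.08) fell in SCC6, and mitochondrial PRDX3 of the peroxide list fell there (-0.54).

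None of 8 genes of the basal layer, in which AQP3 is known to reside, passed in any line in the group-mean fit. In the blocked fit 4 of the 8 were higher and 1 lower in SCC6, beside 20.1% of all genes. SCC1 had 1 higher, beside 4.45% of all genes, and SCC25 had 1 lower, beside 0.978%. With the block KRT15 fell in SCC25 (-2.16 ± 0.28) and SCC6 (-1.01 ± 0.28), KRT14 rose in SCC1 (0.80 ± 0.13), and KRT5, KRT14, TP63 and COL17A1 rose in SCC6, where KRT5 and KRT14 stayed under 5 CPM. Of 12 tested suprabasal genes, TGM1, the transglutaminase of the cornified envelope, rose in SCC6 (2.11 ± 0.50), and none passed in SCC1 or SCC25. With the block TGM1 also rose in SCC1 (1.49 ± 0.25), IVL rose and SBSN fell in SCC6, and KRT13 and KRT4 fell in SCC25. Of the 8 squamous markers KRT17 rose (1.64 ± 0.39) and KRT6A fell (-2.60 ± 0.27) in SCC6.

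Of 19 EGFR and MAPK response genes, 6 fell in SCC6 and none rose, with a median of -1.65. The ligands AREG (-4.53 ± 0.78), EREG (-3.38 ± 0.57) and HBEGF (-3.19 ± 0.76), the phosphatase gene DUSP4 (-2.42 ± 0.48), FOSL1 (-2.97 ± 0.70) and PHLDA1 (-3.81 ± 0.60) were those called. None of the 19 passed in SCC1 or SCC25, with medians of -0.14 and -0.04. With the block 9 fell in SCC6, HBEGF no longer among them, and DUSP6 fell in SCC1 (-0.85). Of the mesenchymal genes, VIM, SPARC, COL5A1 and TAGLN rose in SCC6, by 2.55 to 4.0, with SPARC at or below 1.37 CPM there. No gene of this list passed in SCC1 or SCC25. With the block, VIM fell in SCC1 (-2.21 ± 0.39), against its rise in SCC6. Its level in SCC1 was low, at 2.03 and 6.59 CPM without and 0.628 and 1.11 CPM with cetuximab. FN1, CDH2, SPARC, COL5A1 and TAGLN rose in SCC1 with the block, and FN1, CDH2 and TAGLN in SCC25. The 12 cell cycle genes had negative changes in every line (medians -0.96, -0.37 and -0.43), of which none passed edgeR without the block, where DESeq2 called MKI67, CENPF, UBE2C and BIRC5 in SCC1, and 8 in SCC1 and 2 in SCC6 (CCNB1 and UBE2C) passed with it. The 2 of 12 in SCC6 are no more than the 20.1% of all genes called there, whereas in SCC1 4.45% of all genes were called. Of 7 tested genes of other cell types, PDGFRB and COL1A1 rose and CD68 fell in SCC6, where leukocyte PTPRC and CD3E stayed at or below 0.0221 CPM. The fibroblast genes COL1A2, DCN and LUM rose in SCC1 with the block, and LUM in SCC6 and SCC25. Some of these levels were very low, with LUM at or below 0.160 CPM in SCC1 and 0.631 CPM in SCC6. DCN was at or below 1.29 CPM in SCC1. The counts in SCC6 rest on few libraries, as 21 list members passed in all, 2 without SCC6 PBS replicate 1 and 4 without SCC6 cetuximab replicate 1.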

How the data were processed

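The scRNA-seq counts of 12 samples (3 HNSCC lines, cetuximab or PBS, 2 replicates) were analysed. The deposited values were raw UMI counts per gene and cell, which the authors had made with Cell Ranger, with GRCh38 named as the genome build in the submitters' processing notes, and had pre-processed with Monocle. The Cell Ranger version and the annotation are not given in the sources used here. Members and gene lists were chosen with earlier results of these data known.

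All 23914 deposited cells were used, no doublet caller was run, and for 24 symbols listed more than once the counts were added. The treatment of reads that fit several similar genes is not stated. No column was left without a sample. Counts were summed per sample, since cells are not replicates, and tested with the edgeR quasi-likelihood F-test (edgeR 4.0.16, R 4.3.3, TMM, filterByExpr, two-sided) in 1 fit of 6 group means with 6 residual degrees of freedom. For its scRNA-seq the study had tested single cells, and it used DESeq2 on separate bulk RNA-seq of the same lines. P-values were adjusted by Benjamini-Hochberg (FDR) over 17897 of 25899 genes with a UMI, with a threshold of 0.05. Each sample held 57057402 UMIs or more, so precision for AQP3 was set by how far replicates differed and not by counting.

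Replicate numbers came from the labels. Deviations of same-numbered PBS and cetuximab samples from their group means correlated over genes at r = 0.377 in SCC1, 0.349 in SCC6 and 0.598 in SCC25. Each was over 0.1, so the numbers were taken as pairs, and a fit with the replicate number of each line as a block was run, with 3 residual degrees of freedom.

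For cell-level measures, cells were thinned without replacement to 15000 UMIs (23063 cells kept). Named correlates were, per line, the 5 highest and 3 lowest by mean r among genes in at least 10% of cells of every sample, with r of 0.1 or more in size and 1 sign throughout. From each list the members past the threshold were named, otherwise up to 4 of highest CPM, except that single members of the mesenchymal and volume lists are not reported here, and others are named where a blocked call or a count turned on them. EGFR and TFAP2A, and in the lists genes called with the block, were picked after their values were seen. The alternatives were DESeq2 (1.42.0), DESeq2 size factors, no filter, UMI totals alone (chosen after seeing the data), the block, leaving out each library, the 5% of cells with most UMIs or cells over 20% mitochondrial UMIs, thinning to 10000 UMIs or not at all, 2 or more UMIs as positive, and Spearman's rho. The edgeR and correlation steps were tested on simulated data.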

Additional observations from a re-analysis of the deposited data

Results flagged for a closer look

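Groups of 2 samples were too small for the search for outlying samples. Among 61 genes compared (AQP3, the tested aquaporins, and the named correlates, like genes and list members), 17 had both same-numbered pairs of 1 line higher with cetuximab and both pairs of another line lower. The values below are differences of the 2 lines' mean log2(CPM + 1) changes. For differences that involve SCC6 the difference was not tested, and between SCC1 and SCC25 no gene passed edgeR's test of the difference in the group-mean fit (462 at an unadjusted p under 0.05), while 4 genes passed with the block, 4 without the filter and 6 with DESeq2. AQP3 was not among them.

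Between SCC1 (higher) and SCC6 (lower) the differences were 1.11 for KRT13, 2.55 for KRT6A, 1.70 for CYP1B1, 1.38 for CTSC, 1.89 for S100A6, 1.94 for FXYD3, 1.38 for CTSD, 1.83 for GPX2 and 3.22 for HBEGF. Between SCC1 (higher) and SCC25 (lower) they were 3.08 for KRT13, 0.85 for FXYD3, 0.42 for GPX2, 1.19 for KRT14 and 1.68 for TGM1.

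With SCC6 higher and SCC1 lower, the differences were 0.09 for AQP1, which rests on at most 7 UMIs per library, 0.99 for C12orf75, 1.25 for KRT5 and 5.23 for VIM. With SCC6 higher and SCC25 lower they were 1.22 for KRT14 and 1.67 for TGM1. With SCC25 higher and SCC6 lower they were 1.15 for CTSC, 2.51 for DUSP4 and 3.48 for FOSL1. With SCC25 higher and SCC1 lower they were 1.38 for C12orf75, 1.25 for FOSL1 and 2.03 for VIM. In SCC1, VIM stood at or below 6.59 CPM in every sample.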

How the results depend on the processing

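The direction of AQP3 was the same under every alternative in SCC1, SCC25 and SCC6. The replicate block brought SCC1 (-1.32) and SCC25 (-1.61) past the threshold, with 3 residual degrees of freedom. Leaving out 1 library gave -1.87 to -0.72 in SCC1, -2.76 to -0.50 in SCC25, -3.97 to -3.23 in SCC6, 0.79 to 2.54 for untreated SCC25 against SCC1 and -1.36 to 0.90 for the difference between the changes. That difference turned positive without SCC1 PBS replicate 1 (0.30), SCC1 cetuximab replicate 2 (0.17), SCC25 PBS replicate 2 (0.90) or SCC25 cetuximab replicate 1 (0.48). Untreated SCC25 against SCC1 also lost its call with UMI totals alone (1.66, FDR = 0.0515 by edgeR). These totals moved the median of all genes in SCC6 to 0.23 and the split of its calls from 449 higher and 233 lower to 718 and 138, and in untreated SCC25 against SCC1 from 4192 and 3105 to 3599 and 4093.

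Called members of the lists numbered 0 in SCC1, 0 in SCC25 and 21 in SCC6. In SCC1 and SCC25 they became 9 and 1 with DESeq2, 15 and 1 without the filter, and 22 and 7 with the block. In SCC6 they became 44 with the block, and 2 to 23 when 1 library was left out (2 without PBS replicate 1, 4 without cetuximab replicate 1). Calls over all genes went from 3 in SCC1, 0 in SCC25 and 682 in SCC6 to 271, 101 and 1660 with DESeq2, 243, 128 and 1233 without the filter, and 797, 175 and 3589 with the block. The cause was not tested.

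The change in positive share ranged from -24.4 to -7.47 percentage points in SCC1, -59.3 to -46.2 in SCC6 and -43.9 to -14.2 in SCC25 when 1 library was left out, and was -39.0 in SCC6 with 2 or more UMIs. Mean r lay between 0.32 and 0.34 for CRABP2, 0.19 and 0.25 for KRT19 and 0.54 and 0.58 for LY6D without 1 library, and was 0.41 for CRABP2 and 0.62 for LY6D without thinning. With 2 libraries a group, the spread between replicates limits every comparison.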
